A study of Canis lupus familiaris with 16 samples.

Results

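The transcripts of 7 protein kinases that act on splicing factors were followed by RNA-seq in dog hepatocellular carcinoma (HCC) cell lines, over 16 libraries. They are the CDC2-like kinases CLK1, CLK2, CLK3 and CLK4, the SR protein kinases SRPK1 and SRPK2, and the dual-specificity kinase DYRK1A. Members were taken by symbol, and each of the 7 symbols matched 1 row among the 39543 symbols of the count tables, 28342 of which had at least 1 read. The set was selected on its measured CPM and on its differences between drug and vehicle in these same libraries. The contrasts of the 7 kinases are therefore a description: an adjusted p says where a kinase stands in the fit over all genes, and it is no independent support for a difference that was already known.

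The series used 4 primary cultured canine HCC lines, named KU-cHCC-001, 002, 004 and 005 and grown in Advanced DMEM with fetal bovine serum. Each line was treated for 24 h with sorafenib at 30 µM, with its vehicle dimethyl sulfoxide (DMSO), with toceranib at 15 µM, or with DPBS, a buffered saline labelled as the vehicle of toceranib. Sorafenib inhibits several protein kinases, and toceranib is a veterinary inhibitor of receptor tyrosine kinases. By the labels each treatment had 4 libraries, 1 per line, and nothing in the labels speaks of repeat cultures of a line. For DMSO, sorafenib and toceranib the spread between replicates is thus, by the labels, the spread between lines. Some toceranib libraries lay nearer to a DPBS library than to DMSO of their own line, as given below. A toceranib SD is therefore not certain to measure a spread between 4 lines. The DPBS libraries form close pairs that do not follow the labelled lines, as given below. An SD over them is therefore no measure of the spread between 4 lines.

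SR proteins bind pre-mRNA and take part in the choice of splice sites, and their serine and arginine rich tails are phosphorylated by these kinases. SRPK1 and SRPK2 act largely in the cytoplasm, where phosphorylation marks SR proteins for import into the nucleus. CLK1 to CLK4 act in the nucleus and release SR proteins from storage in speckles, while DYRK1A phosphorylates splicing factors among many other substrates. CLK transcripts are themselves alternatively spliced, and a count per gene does not separate their isoforms.

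Total counts per library ran from 12008366 to 21943572, and the 7 kinases had between 125 counts (CLK4) and 4661 counts (SRPK2) in a library. Levels are CPM, the counts scaled to a common library size, after TMM scaling. In bulk RNA, fewer cells of a type and less RNA per cell cannot be told apart. Of 13 measured hepatocyte markers, HNF4A and FOXA2 alone reached 5 CPM in a DMSO library, and albumin (ALB) stayed at or below 0.422 CPM in all 16 libraries. Of 9 cholangiocyte and progenitor markers, 8 reached 5 CPM in a DMSO library, though not in every line. These markers summed to 1060 CPM in DMSO of KU-cHCC-001 and to 9280 to 13900 CPM in DMSO of the other lines. Among DPBS libraries, those labelled 002 and 005 lay close to each other, as did 001 and 004, at 2.27 and 2.40 times sampling noise, against 11.1 or more for every other pair of libraries. Their deviations did not follow the labelled lines (same-line correlation with DMSO of -0.455 to 0.290 across genes), so toceranib was set against DPBS without pairing. The toceranib library of KU-cHCC-005 was nearest to the DPBS library labelled KU-cHCC-002 (11.1 times sampling noise) and to toceranib of KU-cHCC-004 (12.1). It lay at 38.6 from DMSO of its own line, and DMSO of KU-cHCC-004 and 005 lay at 34.5 from each other. Toceranib of KU-cHCC-002 was nearest to the DPBS library labelled KU-cHCC-004 (19.8), against 63.7 from its own DMSO. Of 13 fibroblast and stellate markers, COL3A1, LUM, DCN and POSTN were at 0 in all DMSO and sorafenib libraries. COL3A1 stood at 72.7 and 80.5 CPM in DPBS of 002 and 005, at 51.4 CPM in the KU-cHCC-005 toceranib library and at 6.60 CPM in that of KU-cHCC-004. That list summed to 2060 to 12900 CPM in the DMSO group, 2460 to 9560 CPM under sorafenib, 2020 to 4000 CPM in the DPBS group and 1940 to 9020 CPM under toceranib. VIM and FN1 stood at 6620 and 6190 CPM in DMSO of KU-cHCC-001, which had the highest sum. The sums mostly reflect VIM and FN1 and do not follow COL3A1.

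Sorafenib against DMSO of the same line was asked first, since DMSO is the labelled vehicle of sorafenib. CLK3, CLK4 and CLK1 were higher and CLK2 was lower with sorafenib, in 4 of 4 lines each. SRPK1 and SRPK2 were also higher in 4 of 4 lines but did not pass the threshold, an edgeR adjusted p under 0.05 over 14938 genes, and DYRK1A was higher in 2 lines and lower in 2. In all, 4 of the 7 kinases were called, 3 higher and 1 lower, beside 19.6% of all genes tested, 9.59% higher and 10.1% lower. The median log2 fold change was 0.40 for the 7 kinases and -0.02 for all genes.

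CLK3 had the largest difference with sorafenib among the 7. It stood at 26.7, 30.1, 24.8 and 20.8 CPM with DMSO and at 51.9, 102, 71.1 and 60.5 CPM with sorafenib in KU-cHCC-001, 002, 004 and 005. The groups did not overlap, and KU-cHCC-002 was the highest line under both treatments. The log2 fold change was 1.44 ± 0.18 (SE, edgeR adjusted p = 9.19e-04), or 2.71-fold, and it ranged from 0.96 in KU-cHCC-001 to 1.76 in KU-cHCC-002. With DPBS, CLK3 stood at 25.2 to 32.7 CPM, overlapping the DMSO range, and with toceranib at 28.7 to 38.7 CPM. In the RefSeq gene table CLK3 overlaps EDC3, a gene of mRNA decapping. How the counting used strand is not stated in any source at hand, so reads from overlapping genes cannot be told apart. For EDC3 itself sorafenib minus DMSO was 0.028 ± 0.18 on the log2 scale (edgeR adjusted p = 0.928).

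CLK4 and CLK1 rose together. CLK4, the kinase with the fewest counts, stood at 9.48, 7.50, 8.51 and 7.28 CPM with DMSO and at 14.6, 20.0, 23.7 and 19.1 CPM with sorafenib in the same order of lines. No sorafenib library was as low as a DMSO library, and KU-cHCC-001 had the highest DMSO and the lowest sorafenib value. Fitted over lines, CLK4 rose by 1.21 ± 0.20 on the log2 scale (SE, edgeR adjusted p = 0.00350).

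CLK1 stood at 32.0, 17.4, 18.0 and 14.9 CPM with DMSO and at 44.6, 28.8, 37.5 and 23.6 CPM with sorafenib. The groups overlapped because DMSO of KU-cHCC-001 lay above sorafenib of 002 and 005, while every line was higher with sorafenib than with its own DMSO. CLK1 rose by 0.71 ± 0.19 on the log2 scale (SE, edgeR adjusted p = 0.0230). The CLK1 call ended without KU-cHCC-002 (edgeR adjusted p = 0.0894), without KU-cHCC-004 (0.160) or without KU-cHCC-005 (0.0911), at log2 fold changes of 0.70, 0.59 and 0.75. Calls over all genes fell from 2935 to 915, 596 and 783 in these refits.

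CLK2 moved the other way. It stood at 49.2, 83.3, 59.9 and 51.1 CPM with DMSO and at 39.8, 55.8, 37.8 and 41.9 CPM with sorafenib, so that the ranges overlapped and each line fell, by 0.31, 0.58, 0.67 and 0.29 on the log2 scale. The fitted log2 fold change was -0.48 ± 0.15 (SE, edgeR adjusted p = 0.0439). This is close to the threshold, and the call ended without KU-cHCC-002 (0.145), KU-cHCC-004 (0.236) or KU-cHCC-005 (0.142), at log2 fold changes of -0.45, -0.41 and -0.51. Calls over all genes fell from 2935 to 915, 596 and 783 in these refits. The CLK2 call also ended without the toceranib library of KU-cHCC-005, which shares the fit (edgeR adjusted p = 0.0521, with 2760 genes called).

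**Figure D1:**
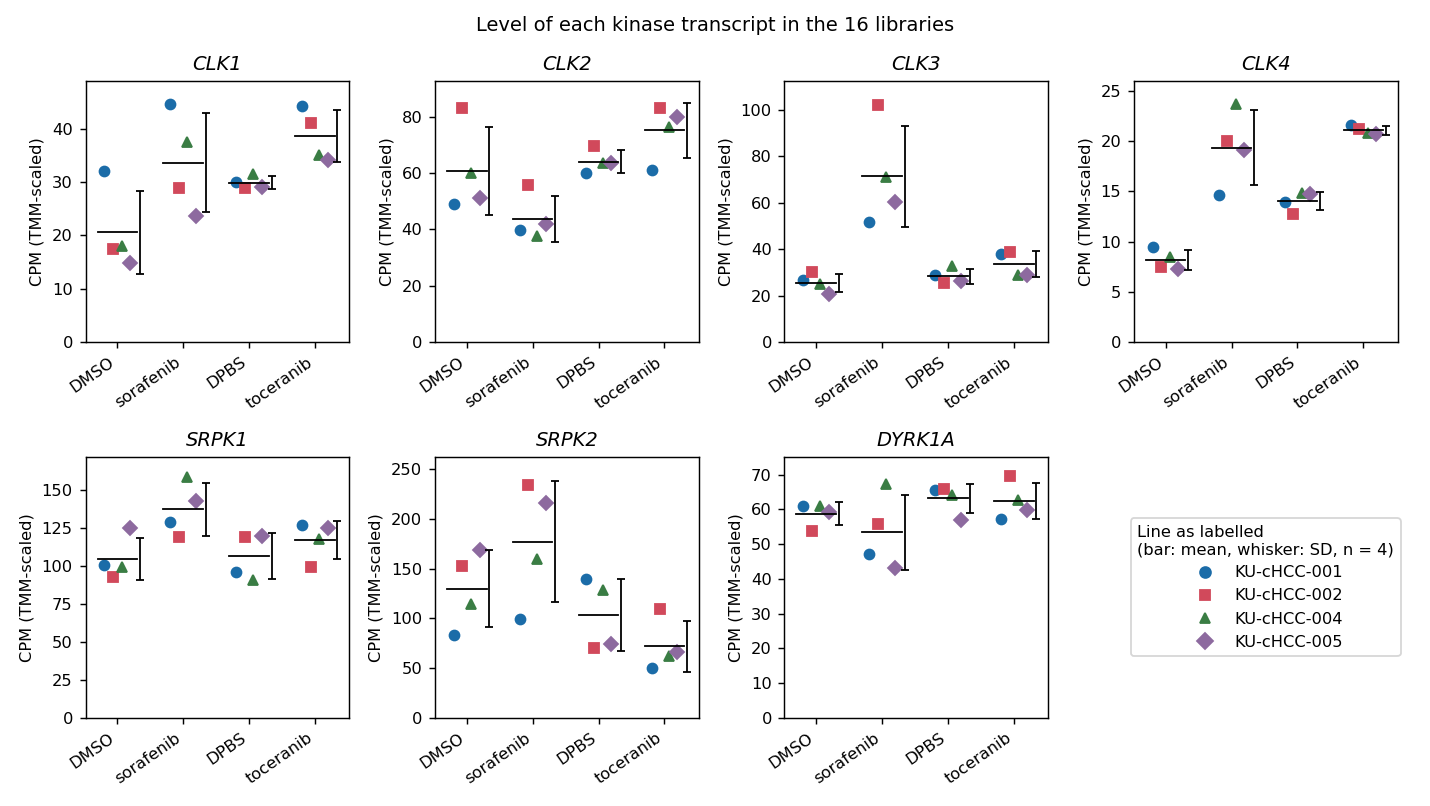
Level of each of the 7 kinase transcripts (CPM after TMM scaling, linear axis from 0) by treatment, with a symbol for each of the 4 lines as labelled, a bar at the mean and a whisker for the SD (n = 4). CLK3 with sorafenib (51.9 to 102 CPM) lies above every other group, CLK4 is lowest with DMSO (7.28 to 9.48 CPM), and SRPK2 with DPBS splits into libraries at 70.3 and 74.6 CPM and libraries at 128 and 140 CPM.

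The ratio of CLK3 to CLK2 counts within a library is one that no scaling between libraries can alter. It sets the kinase with the largest rise with sorafenib against the only one called lower. Its difference thus follows from the changes above and does not show which of them moved. The ratio is not corrected for transcript length and is read between libraries only. The CLK3 to CLK2 ratio was 0.431 ± 0.0779 (SD, n = 4) with DMSO, 0.443 ± 0.0690 with DPBS, 0.457 ± 0.121 with toceranib and 1.61 ± 0.283 with sorafenib. The lowest sorafenib ratio, 1.30 in KU-cHCC-001, was above the highest ratio of the other 12 libraries, 0.625 in toceranib of the same line.

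The SR protein kinases were higher with sorafenib in every line without passing. SRPK1 stood at 101, 92.9, 99.5 and 125 CPM with DMSO and at 129, 119, 159 and 143 CPM with sorafenib, and the ranges overlapped. Its log2 fold change was 0.37 ± 0.14 (SE, edgeR adjusted p = 0.0771), and it passed in DESeq2 (adjusted p = 0.0391). Over all genes DESeq2 called 3737 in this contrast and edgeR 2935. SRPK2 stood at 83.7, 153, 114 and 169 CPM with DMSO and at 99.2, 234, 160 and 216 CPM with sorafenib. KU-cHCC-001 had the lowest SRPK2 level under both treatments. Its log2 fold change was 0.40 ± 0.16 (SE, edgeR adjusted p = 0.106), and in the 8 sorafenib and DMSO libraries fitted alone it passed at 0.39 (edgeR adjusted p = 0.0248). SRPK1 passed there too (0.36, edgeR adjusted p = 0.0387), in a fit that called 5053 genes.

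DYRK1A showed no common direction across lines with sorafenib. It stood at 60.9, 53.9, 61.1 and 59.2 CPM with DMSO and at 47.2, 55.7, 67.4 and 43.2 CPM with sorafenib, where the libraries spread to both sides of the DMSO range. The log2 fold change was -0.18 ± 0.16 (SE, edgeR adjusted p = 0.461), with an interval of 2 SE on either side from -0.50 to 0.14.

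Toceranib against DMSO of the same line used the same 12 libraries and shares the DMSO libraries with the contrast above. In it the vehicle differs along with the drug, because the labelled vehicle of toceranib is DPBS. CLK4 and CLK1 were higher and SRPK2 was lower with toceranib in 4 of 4 lines, and the other 4 kinases did not pass. Thus 3 of 7 kinases were called, 2 higher and 1 lower, beside 7.46% of all genes tested, 4.31% higher and 3.15% lower, and the median log2 fold change was 0.32 for the 7 kinases and -0.01 for all genes.

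CLK4 stood at 21.6, 21.2, 20.8 and 20.7 CPM with toceranib in KU-cHCC-001, 002, 004 and 005, the narrowest group of the 4 treatments (21.1 ± 0.440 CPM, SD, n = 4). All 4 libraries lay above the DMSO range of 7.28 to 9.48 CPM given above. CLK4 rose by 1.35 ± 0.20 on the log2 scale (SE, edgeR adjusted p = 0.0114). The call ended without KU-cHCC-002 (0.0818), KU-cHCC-004 (0.0936) or KU-cHCC-005 (0.139), at log2 fold changes of 1.29, 1.38 and 1.30. It also ended without the toceranib libraries of KU-cHCC-004 and 005 together (0.0950, log2 fold change 1.41). Calls over all genes fell from 1115 to 7, 4, 1 and 0 in these refits. Without the toceranib library of KU-cHCC-005 alone CLK4 stayed called (1.32, edgeR adjusted p = 0.0494).

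CLK1 stood at 44.3, 41.0, 35.1 and 34.1 CPM with toceranib, all above the DMSO range of 14.9 to 32.0 CPM. The log2 fold change was 0.96 ± 0.19 (SE, edgeR adjusted p = 0.0205), and the line with the highest DMSO level, KU-cHCC-001, had the smallest difference (0.47 against 0.97 to 1.24). The call ended without KU-cHCC-002 (0.126), KU-cHCC-004 (0.109) or KU-cHCC-005 (0.181), at log2 fold changes of 0.85, 0.96 and 0.88. In these refits 7, 4 and 1 genes were called, against 1115 in the main fit. Without the toceranib library of KU-cHCC-005 alone the log2 fold change was 0.86 (edgeR adjusted p = 0.0819).

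SRPK2 stood at 50.5, 109, 62.1 and 66.3 CPM with toceranib. The ranges of the groups overlapped, since toceranib of KU-cHCC-002 lay above DMSO of KU-cHCC-001, but each line was lower with toceranib, by 0.49 in KU-cHCC-002 to 1.35 in KU-cHCC-005 on the log2 scale. The log2 fold change was -0.87 ± 0.16 (SE, edgeR adjusted p = 0.0191). The call ended without KU-cHCC-002 (0.0790), KU-cHCC-004 (0.117) or KU-cHCC-005 (0.177), at log2 fold changes of -1.01, -0.86 and -0.71. In these refits 7, 4 and 1 genes were called, against 1115 in the main fit. Without the toceranib library of KU-cHCC-005 the log2 fold change was -0.73 (edgeR adjusted p = 0.0687), and without those of KU-cHCC-004 and 005 it was -0.64 (0.170). SRPK2 overlaps the chromatin gene KMT2E in the RefSeq table, and KMT2E gave -0.12 ± 0.17 (edgeR adjusted p = 0.684) with toceranib. A second overlapping gene, LOC111090901, was higher with toceranib (2.16 ± 0.57, edgeR adjusted p = 0.0453), from a mean of 0.208 to 0.843 CPM, and did not exceed 1.07 CPM in any library.

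The remaining kinases differed less from DMSO. CLK3 stood at 28.7 to 38.7 CPM with toceranib and was higher in 4 of 4 lines, at a log2 difference of 0.38 ± 0.17 (SE, edgeR adjusted p = 0.182). CLK2 stood at 61.1 to 83.3 CPM, at a log2 difference of 0.32 ± 0.15 (SE, edgeR adjusted p = 0.198). SRPK1 stood at 99.1 to 127 CPM (0.15 ± 0.14, edgeR adjusted p = 0.499) and DYRK1A at 57.4 to 69.6 CPM (0.070 ± 0.16, edgeR adjusted p = 0.810), and both overlapped their DMSO ranges.

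Set directly against sorafenib in the same lines, toceranib differed for CLK2, CLK3 and SRPK2. The drugs were given at different doses and in different vehicles, and the test compares these treatments as given. SRPK2 was lower with toceranib (-1.27 ± 0.17 on the log2 scale, SE, edgeR adjusted p = 3.99e-04), with differences of -0.98, -1.10, -1.37 and -1.70 in KU-cHCC-001, 002, 004 and 005. CLK3 was lower with toceranib as well (-1.05 ± 0.18, edgeR adjusted p = 0.00133), and CLK2 was higher (0.80 ± 0.15, edgeR adjusted p = 0.00245). These are 3 of 7 kinases, 1 higher and 2 lower, beside 38.4% of all genes called in this contrast, 20.1% higher and 18.3% lower, a share near the background. These 3 calls held with each line left out, and with the toceranib library of KU-cHCC-005 left out. Without the toceranib libraries of KU-cHCC-004 and 005 the CLK2 call ended (0.61, edgeR adjusted p = 0.0694).

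CLK1 and CLK4 were not told apart between the drugs. The toceranib minus sorafenib difference of CLK1 was 0.25 ± 0.19 (SE, edgeR adjusted p = 0.305), with an interval of 2 SE on either side from -0.12 to 0.62, and that of CLK4 was 0.14 ± 0.20 (edgeR adjusted p = 0.587), with an interval from -0.25 to 0.54. CLK1 was higher with toceranib in 2 lines and lower in 2, and CLK4 was higher in 3 lines.

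Against its labelled vehicle DPBS, without pairing, toceranib gave smaller differences for CLK1 and CLK4. Drug and the lines behind the DPBS libraries differ together in this contrast and cannot be told apart. The cholangiocyte and progenitor markers summed to 7810 to 8530 CPM with DPBS. With toceranib they summed to 3330 CPM in KU-cHCC-001 and to 8750 to 11200 CPM in the other lines. Single markers went both ways in toceranib of KU-cHCC-001. KRT19 stood at 69.3 CPM (2490 to 2690 with DPBS), EPCAM at 515 CPM (395 to 490) and SPP1 at 2440 CPM (125 to 418). CLK4 stood at 13.9, 12.8, 14.8 and 14.7 CPM with DPBS in the libraries labelled KU-cHCC-001, 002, 004 and 005. All 4 lay below the toceranib libraries (20.7 to 21.6 CPM) and above the DMSO libraries. CLK1 stood at 30.1, 28.8, 31.5 and 29.0 CPM with DPBS, below every toceranib library (34.1 to 44.3 CPM) and within the DMSO range.

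The log2 fold changes against DPBS were 0.61 ± 0.14 for CLK4 (SE, edgeR adjusted p = 0.198) and 0.39 ± 0.13 for CLK1 (edgeR adjusted p = 0.321). By edgeR 0 of 7 kinases passed after adjustment, and 2, CLK4 and CLK1, had an unadjusted p under 0.05. In this contrast edgeR called 1 of 14588 genes (0.00685%), and 1799 genes had an unadjusted p under 0.05. DESeq2 called 410 genes and 1 of the 7 kinases, CLK4 (0.59, DESeq2 adjusted p = 9.53e-04). With each close pair of DPBS libraries summed to 1 sample edgeR called 0 genes.

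SRPK2 split the DPBS libraries. It stood at 140, 70.3, 128 and 74.6 CPM in the libraries labelled KU-cHCC-001, 002, 004 and 005, so that 002 and 005 were low and 001 and 004 high. The pair with low SRPK2 is the pair with COL3A1 at 72.7 and 80.5 CPM, and COL3A1 was at 0 in the other pair. The part of such cells in the SRPK2 level was not tested. Against DPBS the log2 fold change of SRPK2 was -0.51 ± 0.31 (SE, edgeR adjusted p = 0.517). It was -0.78 without toceranib of KU-cHCC-002 (0.250) and -0.33 without the DPBS library labelled KU-cHCC-001 (0.811).

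The other kinases overlapped between toceranib and DPBS. CLK2 stood at 59.9 to 69.5 CPM with DPBS (log2 fold change 0.25 ± 0.13, edgeR adjusted p = 0.456) and CLK3 at 25.2 to 32.7 CPM (0.27 ± 0.16, 0.509). SRPK1 stood at 90.7 to 120 CPM with DPBS (0.16 ± 0.15, edgeR adjusted p = 0.680), and DYRK1A at 57.1 to 65.9 CPM (0.0010 ± 0.12, 0.998).

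**Figure D2:**
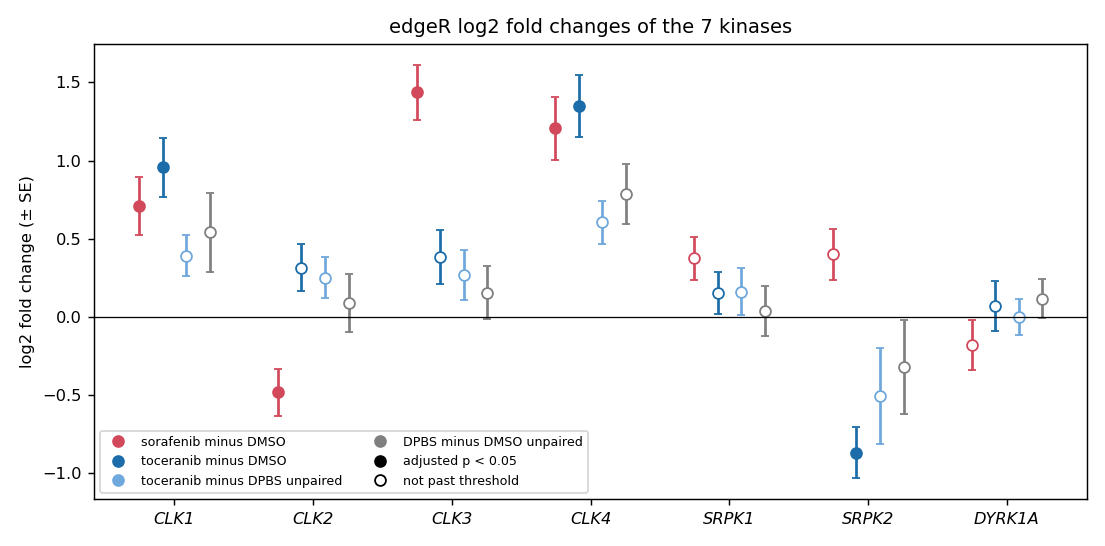
edgeR log2 fold changes (points) with SE (whiskers) of the 7 kinases in the sorafenib and toceranib contrasts with DMSO, in toceranib minus DPBS and in DPBS minus DMSO. Filled points had an adjusted p under 0.05 over all genes tested. CLK4 lies at 1.21 and 1.35 against DMSO, at 0.61 for toceranib against DPBS and at 0.78 for DPBS against DMSO.

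The 2 vehicles were set against each other after these levels had been seen. DPBS minus DMSO, without pairing, gave 0.78 ± 0.19 for CLK4 (SE, edgeR adjusted p = 0.0597) and 0.54 ± 0.25 for CLK1 (edgeR adjusted p = 0.247). In the full set the log2 fold changes of the other 5 kinases lay between -0.32 (SRPK2) and 0.15 (CLK3). There edgeR called 0 of 7 kinases and 3.42% of 14186 genes, 2.23% higher and 1.19% lower. Without the DMSO library of KU-cHCC-001 both CLK4 (0.86, edgeR adjusted p = 0.0166) and CLK1 (0.84, 0.0101) passed, while calls over all genes rose from 485 to 2378. Without DMSO of KU-cHCC-002, 004 or 005 these calls were 153, 101 and 2, and without any 1 DPBS library 0. In each of those refits 0 of 7 kinases passed. DESeq2 called CLK4, which by edgeR had an unadjusted p under 0.05. Vehicle and the lines behind the DPBS libraries differ together in this comparison and cannot be told apart.

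**Figure D3:**
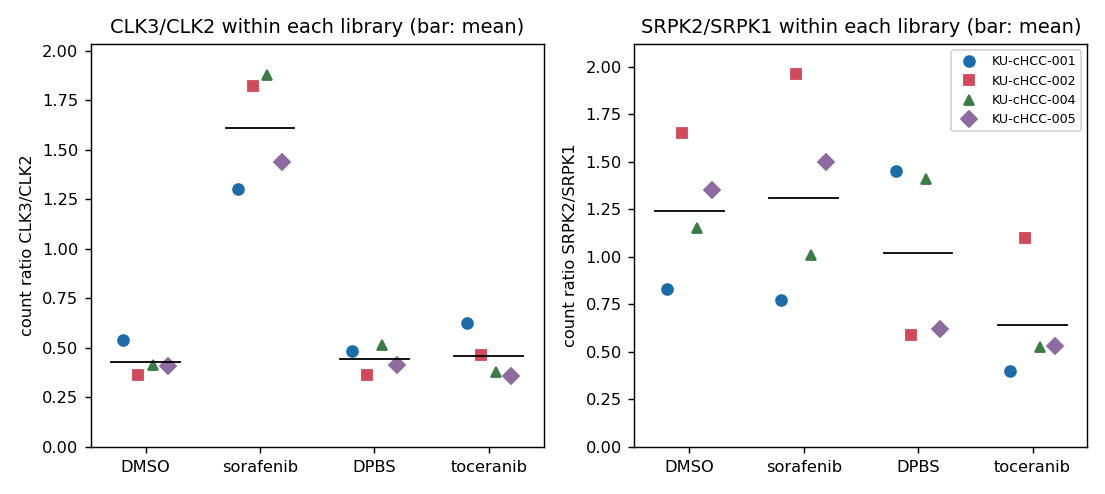
Count ratios CLK3 to CLK2 and SRPK2 to SRPK1 within each of the 16 libraries (linear axes from 0, a symbol per line as labelled, bar at the mean of 4). The 4 sorafenib libraries have CLK3 to CLK2 ratios of 1.30 to 1.88 against at most 0.625 elsewhere, while the SRPK2 to SRPK1 ratio is 0.397 to 1.10 with toceranib and splits with DPBS into 0.591 and 0.622 and 1.41 and 1.45.

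By treatment, the order of levels differed between the kinases. The SD with DPBS comes from close pairs of libraries and does not measure a spread between 4 lines, and that with toceranib may not either. CLK4 ran from 8.19 ± 1.01 CPM with DMSO through 14 ± 0.931 with DPBS to 19.3 ± 3.75 with sorafenib and 21.1 ± 0.440 with toceranib (SD, n = 4), where DPBS and sorafenib overlapped, and sorafenib and toceranib did too. CLK1 ran in the same order, from 20.6 ± 7.70 through 29.8 ± 1.24 and 33.6 ± 9.27 to 38.6 ± 4.84 CPM, with all neighbours overlapping. CLK3 ran from 25.6 ± 3.88 (DMSO) through 28.3 ± 3.35 (DPBS) and 33.6 ± 5.52 (toceranib) to 71.3 ± 21.7 CPM (sorafenib), and sorafenib alone stood clear of its neighbour. CLK2 had sorafenib lowest (43.8 ± 8.19 CPM), then DMSO (60.9 ± 15.7), DPBS (64.1 ± 3.99) and toceranib (75.2 ± 9.81), with all neighbours overlapping.

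SRPK2 ran from 71.9 ± 25.6 CPM with toceranib through 103 ± 35.9 with DPBS and 130 ± 38.5 with DMSO to 177 ± 60.6 with sorafenib, all neighbours overlapping. SRPK1 lay between 105 ± 14.1 (DMSO) and 138 ± 17.5 CPM (sorafenib), and DYRK1A between 53.4 ± 10.7 (sorafenib) and 63.2 ± 4.13 CPM (DPBS), with overlap throughout. Levels are not compared between kinases, because transcript lengths are not used here.

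Over the 12 DMSO, sorafenib and toceranib libraries, with each line centred on its own mean of log2(CPM + 0.5), CLK1 and CLK4 had the highest Pearson correlation among the 7 kinases (0.93), and CLK2 and SRPK2 the lowest (-0.95). CLK3 and SRPK1 correlated at 0.88, and CLK2 and CLK3 at -0.72. These are descriptions over 12 libraries that share lines, depth and scaling. Differences between treatments enter these correlations, so they are not independent of the contrasts above.

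The genes most like each kinase on that measure were taken from 10232 genes with a mean of at least 5 CPM. For CLK1 they were AKAP17A (r = 0.975), a spliceosome-associated protein, SLC9A5 (0.966) and SERPINH1 (0.965), and for CLK4 they were JAG1 (0.961), TINAGL1 (0.960) and GADD45B (0.951). For CLK2 they were TAF15 (0.983), an RNA-binding protein, and ENGASE (0.974), and for CLK3 RMDN3 (0.988), ALAS1 (0.984) and TMCO6 (0.976). For SRPK1 they were GALNT11 (0.962), RAD51B (0.945) and SHB (0.945), for SRPK2 GOT2 (0.994), STAU2 (0.991) and MIEF1 (0.990), and for DYRK1A BCOR (0.961), KIFC3 (0.933) and PATJ (0.925).

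The SR proteins, substrates of these kinases, were measured in the same fits. With sorafenib 5 of 13 tested SR protein genes fell and 1 rose, with a median log2 fold change of -0.35, against 10.1% lower, 9.59% higher and a median of -0.02 over all genes. SRSF6 went from 330 ± 47.0 to 149 ± 36.2 CPM (SD, n = 4; log2 fold change -1.19 ± 0.15 SE, edgeR adjusted p = 0.00113). SRSF3 went from 316 ± 32.1 to 131 ± 45.3 CPM (-1.33 ± 0.20, edgeR adjusted p = 0.00220), and SRSF1 from 169 ± 26.5 to 84.7 ± 23.8 CPM (-1.04 ± 0.18, 0.00401). For all 3 genes every sorafenib library was below every DMSO library. They were named for the smallest adjusted p in this contrast, so this separation is no added support. Its share over all genes was not counted. SRSF12 was the member that rose (1.01 ± 0.21, edgeR adjusted p = 0.00851), from 14.2 ± 7.84 to 27.1 ± 8.81 CPM. With KU-cHCC-002, 004 or 005 left out, or without the line block, 0 SR protein genes were called higher. Calls over all genes fell from 2935 to 915, 596, 783 and 464 in these refits.

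With toceranib against DMSO 1 of 13 SR protein genes rose and 0 fell, beside 4.31% and 3.15% of all genes; 5 of 13 had an unadjusted edgeR p under 0.05, and DESeq2 called 2 higher and 0 lower. The gene that rose was SRSF4 (0.57 ± 0.15 SE, edgeR adjusted p = 0.0431). Without the toceranib library of KU-cHCC-005 it was not called, and 0 SR protein genes were called higher, while calls over all genes fell from 1115 to 66. SRSF4 had means of 97.6, 119 and 146 CPM with DMSO, DPBS and toceranib. SRSF6 and SRSF3 stood at 319 ± 49.4 and 299 ± 41.8 CPM with toceranib, with DMSO means of 330 and 316 CPM.

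In the direct contrast of the drugs 9 of 13 SR protein genes were higher and 1 lower with toceranib, beside 20.1% and 18.3% of all genes. SRSF5 had the smallest p, at 53.6 ± 10.7 CPM with sorafenib, 164 ± 33.4 CPM with toceranib and 117 ± 24.2 CPM with DMSO (toceranib minus sorafenib 1.60 ± 0.20 SE, edgeR adjusted p = 3.19e-04). The count of 9 was 6 without KU-cHCC-002, 5 without KU-cHCC-004, 6 without KU-cHCC-005, and 3 without the toceranib libraries of KU-cHCC-004 and 005. Calls over all genes fell from 5737 to 3908, 3017, 3117 and 2441 in these refits. Against DPBS 0 of 13 passed, with 1 at an unadjusted edgeR p under 0.05 and 0 in DESeq2.

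The heterogeneous nuclear ribonucleoproteins (hnRNP), RNA-binding proteins that often oppose SR proteins at splice sites, had 11 of 24 tested genes lower with sorafenib, beside 10.1% of all genes, at a median of -0.50. HNRNPM went from 538 ± 89.1 to 183 ± 61.1 CPM (-1.62 ± 0.22 SE, edgeR adjusted p = 0.00141) and HNRNPA2B1 from 1190 ± 165 to 425 ± 62.4 CPM (-1.49 ± 0.21, 0.00174). The count of 11 was 6 without KU-cHCC-002, 6 without KU-cHCC-004 and 3 without KU-cHCC-005. Calls over all genes fell from 2935 to 915, 596 and 783 in these refits. With toceranib against DMSO 2 of 24 were lower, PCBP2 (-0.67) and HNRNPUL1 (-0.71), and 1 was higher, PTBP2 (1.11). These are 8.33% and 4.17% of the list, beside 3.15% lower and 4.31% higher of all genes. None of the 3 was called without the toceranib library of KU-cHCC-005, where calls over all genes fell from 1115 to 66. With DMSO, DPBS and toceranib PCBP2 had means of 556, 351 and 362 CPM and HNRNPUL1 of 354, 242 and 215 CPM. Those of PTBP2 were 20.3, 30.2 and 41.6 CPM, and by edgeR 0 of the 24 passed in DPBS minus DMSO.

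Of 42 core spliceosome genes 10 (23.8%) were lower with sorafenib, beside 10.1% of all genes, led by the helicase DDX23 (-0.78), SF3B5 (-1.12) and DDX46 (-1.26), at a median of -0.33. This count was 3 without KU-cHCC-002, 1 without KU-cHCC-004 and 1 without KU-cHCC-005. Calls over all genes fell from 2935 to 915, 596 and 783 in these refits. With toceranib against DMSO 3 (7.14%) were lower, beside 3.15% of all genes: PRPF31 (-0.64), SF3A1 (-0.61) and SF3B3 (-0.48). Without the toceranib library of KU-cHCC-005 this count was 0, and calls over all genes fell from 1115 to 66. With DMSO, DPBS and toceranib PRPF31 had means of 81.4, 57.1 and 52.7 CPM and SF3A1 of 201, 132 and 133 CPM. Those of SF3B3 were 208, 132 and 150 CPM, and by edgeR 0 of the 42 passed in DPBS minus DMSO.

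Among 23 SR-related proteins, which carry similar serine and arginine rich stretches, 5 fell and 2 rose with sorafenib (21.7% and 8.70%, beside 10.1% and 9.59% of all genes). THRAP3 (-1.21), BCLAF1 (-1.17) and LUC7L3 (-0.97) led the decreases, and RSRC2 (0.58) and RBM39 (0.56) were the increases. The count of 5 was 3 without KU-cHCC-002, 3 without KU-cHCC-004 and 2 without KU-cHCC-005. The count of 2 was 3 without KU-cHCC-001 and 0 without any one of the other lines. Calls over all genes were 3906, 915, 596 and 783 without KU-cHCC-001, 002, 004 and 005, against 2935 in the main fit. With toceranib against DMSO 5 rose and 1 fell (21.7% and 4.35%, beside 4.31% and 3.15% of all genes). RBM25 rose from 284 ± 37.9 to 551 ± 140 CPM (0.93 ± 0.17 SE, edgeR adjusted p = 0.0185), and NKTR (1.35) and SREK1 (0.84) were next, while RNPS1 fell (-0.73). All 6 calls ended without the toceranib library of KU-cHCC-005, where calls over all genes fell from 1115 to 66. With DMSO, DPBS and toceranib RBM25 had means of 284, 405 and 551 CPM and SREK1 of 109, 149 and 196 CPM. Those of RNPS1 were 280, 185 and 172 CPM. With DPBS, NKTR stood at 132 ± 22.4 CPM, between its DMSO (56.0 ± 15.9 CPM) and toceranib (141 ± 45.3 CPM) means, and it was called in DPBS minus DMSO (1.25 ± 0.24 SE, edgeR adjusted p = 0.0338).

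Of 9 tested related kinases outside the 7, 1 rose and 1 fell with sorafenib, 11.1% in each direction and near the 9.59% higher and 10.1% lower of all genes. HIPK2, a nuclear kinase of the DYRK family, rose from 22.9 ± 12 to 89.2 ± 22.1 CPM (2.01 ± 0.25 SE, edgeR adjusted p = 9.19e-04). DYRK1B, the closest relative of DYRK1A, fell from 24.7 ± 6.37 to 9.68 ± 2.17 CPM (-1.35 ± 0.24, edgeR adjusted p = 0.00430), while DYRK1A itself gave -0.18 ± 0.16. Without KU-cHCC-004, 0 of the 9 were called lower, in a refit where calls over all genes fell from 2935 to 596. With toceranib against DMSO 0 of 9 were called by edgeR and 0 by DESeq2, and 1 had an unadjusted edgeR p under 0.05. Of 14 genes of nonsense-mediated decay, the pathway that degrades transcripts with early stop codons, SMG5 (0.56) rose and UPF3B (-0.68) and UPF3A (-0.88) fell with sorafenib. These are 7.14% and 14.3% of the list, near the shares of all genes, and 0 in either direction were called without KU-cHCC-002, 004 or 005. Over all genes 915, 596 and 783 were called in these refits. DESeq2 called 3 higher and 2 lower, and with no filter on low counts edgeR called 1 higher and 1 lower. SMG9 (-0.81) fell with toceranib against DMSO, 7.14% of the list beside 3.15% of all genes. That call ended without the toceranib library of KU-cHCC-005, where calls over all genes fell from 1115 to 66. SMG9 stood at 56.6 ± 12.4 CPM with DMSO, 31.4 ± 3.34 with DPBS and 32.2 ± 3.45 with toceranib (SD, n = 4). It was also called lower in DPBS minus DMSO (-0.84 ± 0.19 SE, edgeR adjusted p = 0.0498).

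**Figure D4:**
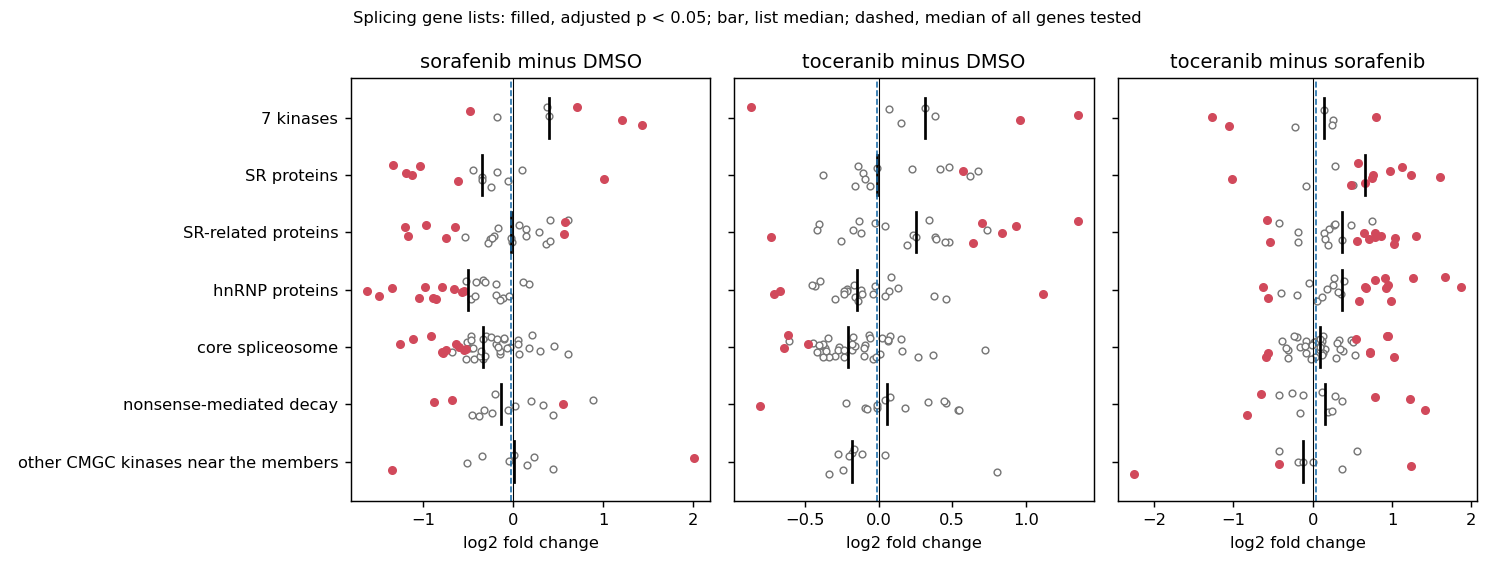
edgeR log2 fold changes of the 7 kinases and of 6 lists of splicing and decay genes in sorafenib minus DMSO, toceranib minus DMSO and toceranib minus sorafenib, a point per gene, filled where the adjusted p was under 0.05, with a bar at the list median and a dashed line at the median of all genes tested. The SR protein median is -0.35 with sorafenib and -0.01 with toceranib, and the hnRNP median -0.50 and -0.15.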

How the data were processed

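Each of the 16 deposited tables holds the authors' unnormalized read counts by gene symbol. TopHat is named per the submitters' processing notes. Its version and the counter, with strand setting, build and annotation: not given in the sources used here. Libraries were made with a directional kit, per the labels' protocols. Entries of 1 symbol were summed (39954 entries, 89 repeated symbols, none a kinase described here). Genes passing filterByExpr were fitted with edgeR 4.0.16 in R 4.3.3 (TMM, robust quasi-likelihood test, Benjamini-Hochberg adjustment over all genes tested, threshold 0.05). The main fit held 12 libraries (DMSO, sorafenib, toceranib; 14938 genes, 6 residual degrees of freedom) with the cell line as a block, since labels name the same line in each treatment. As a check, deviations from treatment means correlated at 0.560 to 0.892 between same-line libraries of DMSO and each drug, and 4 of 4 matched their own line best. A second fit held the 8 DPBS and toceranib libraries (14588 genes) without block, and another, added after seeing the data, DPBS and DMSO (14186 genes). All 7 kinases passed every filter. CPM use 1 TMM scaling of all libraries. The SE is the log2 fold change over the square root of F. Scripts were tested on simulated data. Alternatives were DESeq2 1.42.0, RLE scaling, other filters, other sample sets and left-out lines or libraries.

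The 7 kinases and the lists were chosen with earlier results of these data known. Named genes are the 7 kinases, up to 3 called genes per direction, list and contrast with the smallest adjusted p, the 3 genes most correlated with each kinase (1 of them is not reported here), and genes that overlap CLK3 or SRPK2 in the RefSeq table of UU_Cfam_GSD_1.0, which was used for names alone. NKTR, SMG9 and DYRK1A are repeated beside other contrasts after their values were seen. DPBS levels of listed genes named in toceranib minus DMSO were also added after the values were seen. With the line as a block, differences in level between lines do not enter the SE, and p-values measure the remaining spread between these libraries, which may be technical in part.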

Additional observations from a re-analysis of the deposited data

How the results depend on the processing

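Of 448 values of the 7 kinases under alternatives, over 35 combinations of kinase and contrast, 394 kept their sign and their side of the threshold, 32 kept their sign but no longer passed, 7 newly passed, and 15 changed sign where neither value passed. In toceranib minus DPBS, where 1 gene passed, these counts say little about stability. CLK3 and CLK4 with sorafenib passed in all 13 alternatives run, at log2 fold changes of 1.32 to 1.59 and 1.12 to 1.41. CLK2 with sorafenib lost its call with no filter on low counts (-0.47, edgeR adjusted p = 0.119). SRPK2 with toceranib against DMSO lost its call with all 16 libraries in the fit (-0.87, edgeR adjusted p = 0.132), and both SRPK2 (0.0694) and CLK1 (0.0617) did with 8. Without the cell line as a block, 464 genes were called in sorafenib minus DMSO (2935 with it), 0 in toceranib minus DMSO (1115 with it) and 2159 in toceranib minus sorafenib (5737 with it), and CLK1 and CLK2 lost their sorafenib calls (edgeR adjusted p = 0.230 and 0.208), as did CLK1, CLK4 and SRPK2 in toceranib minus DMSO (0.222, 0.0686 and 0.264). With the labelled line as a block 0 genes were called in toceranib minus DPBS (1 without) and 0 in DPBS minus DMSO (485 without). With only the 8 libraries compared, 5053 were called for sorafenib and 129 for toceranib against DMSO, and with all 16 libraries 557 for the latter. DESeq2 called 2335 genes in toceranib minus DMSO, 410 in toceranib minus DPBS and 1752 in DPBS minus DMSO. Summing the DPBS pairs gave 0. Without toceranib of KU-cHCC-005, 66 genes were called in toceranib minus DMSO, and without those of KU-cHCC-004 and 005, 0 there and 2441 in toceranib minus sorafenib. With each line or library left out, counts ran from 596 to 3906 (sorafenib minus DMSO), 1 to 3044 (toceranib minus DMSO), 3017 to 6750 (toceranib minus sorafenib), 1 to 28 (toceranib minus DPBS) and 0 to 2378 (DPBS minus DMSO). The cause of these shifts was not tested. CLK4, with 125 to 513 counts per library, has the widest counting error of the 7.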
